A study of Mus musculus with 4 samples.

Results

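The genes described here are those of cholesterol and fatty acid synthesis, listed by symbol as enzymes of the mevalonate and sterol pathway, the SREBP system that controls them, and enzymes that make, desaturate and elongate fatty acids. Of 32 genes listed, 31 had a probe set assigned to that gene alone, out of 19938 genes so named on the array; Acat2 was not analysed here. Members are listed by symbol, but the list was chosen with earlier results of these data known. Where a gene had several probe sets, the brightest on these arrays was taken. The genes were measured in dendritic cells grown from mouse bone marrow in 20 ng/mL GM-CSF, which drives myeloid precursors towards this cell type, with 10% serum. On day 10 the cells were electroporated with a control siRNA (si-Ctrl) or an siRNA against the orphan nuclear receptor NR4A3 (si-NR4A3). After 24 hours they were left unstimulated or given 100 ng/mL LPS, a bacterial cell wall component sensed by TLR4, and they were harvested 24 hours later. Each of the 4 combinations has 1 array, so all measured cells had been electroporated with an siRNA. The labels give the strain as BALB/c in one place and C57BL/6 in another, and no number of animals.

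Cells make cholesterol from acetyl-CoA through mevalonate, farnesyl diphosphate, squalene and lanosterol. When sterols in the endoplasmic reticulum run low, the escort protein Scap carries the precursors of the SREBP transcription factors to the Golgi, where proteases release the active factors, which switch on most of these enzymes; when sterols are plentiful, Insig proteins hold Scap back. SREBP-2 (gene Srebf2) mainly serves cholesterol synthesis and SREBP-1 (gene Srebf1) mainly fatty acid synthesis, and myeloid cells are known to reshape both pathways after TLR signals.

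Levels are log2 values made by the array software, and a difference of 1 is 2-fold. Where 4 levels are given they stand in a fixed order, control siRNA without and with LPS, then NR4A3 siRNA without and with LPS. With 1 array a condition, a pair of arrays gives a difference without any replicate or test. The average effect of LPS over both siRNAs, and of NR4A3 siRNA over both states, was tested in an additive model fitted to 10592 genes, and is given with its standard error (SE) and the adjusted p from limma; "fell" and "rose" are kept for members with an adjusted p under 0.05. Whether the arrays come from separate cultures is not stated, so these p-values do not measure spread between cultures or animals. Their error joins 1 residual degree of freedom of each gene over these 4 arrays with a prior of 4.76 drawn from all genes in the fit.

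The targeted gene, Nr4a3, stood at 11.21, 11.77, 7.15 and 9.39; both arrays with its siRNA lay below both with control siRNA, by 16.6-fold without LPS and 5.21-fold with it. Its relative Nr4a2 was also 2.28-fold lower with NR4A3 siRNA in LPS-treated cells. Markers of dendritic cells were present: 11 of 12 reached the median level of all named genes, 6.66, on every array, the exception being Flt3. Macrophage markers were present too, 8 or 9 of 9 at that level, as is usual for GM-CSF cultures, while 0 of 7 lymphocyte and 0 of 3 erythroid markers, 1 of 10 neutrophil markers and at most 1 of 8 mast cell and basophil markers reached it. Of 7 adipocyte markers 2 were at that level on every array, Pparg and Fabp4, while the hormone genes Adipoq and Lep were below it on all 4; Pparg stood at 9.21, 7.25, 10.15 and 7.73, falling with LPS and rising with NR4A3 siRNA. Of 7 stromal markers 5 were at that level, and 1 of them, Dcn, rose by 2.97 with LPS, from 7.30 to 9.99 and from 7.06 to 10.31. The part of these adipocyte and stromal markers in the members' differences was not tested. In bulk RNA, fewer cells of a type and less RNA per cell cannot be told apart.

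With LPS, most genes of cholesterol and fatty acid synthesis fell. Averaged over both siRNAs, 25 of 31 members fell, 1 rose (Pmvk) and 5 did not pass the test; among all 10592 genes, 14.4% fell and 15.6% rose. All 10 members that turn squalene into cholesterol fell in this fit, of which Lss did not pass without the level filter (adjusted p = 0.0712 with limma) and 7, Lss included, did not pass with siRNA left out of the model. Between pairs of arrays, 21 members were at least 1.5-fold lower with LPS under control siRNA, where 9.44% of genes were, and 16 under NR4A3 siRNA, where 6.88% were. The median member differed by -0.87 and -0.60 in these pairs, against -0.02 and 0.02 over all genes in the fit. One member was at least 1.5-fold higher in both pairs, where 10.2% and 10.3% of genes were. Under both siRNAs alike, 14 members were at least 1.5-fold lower, against 5.38% of genes. When siRNA is left out of the model, so that its differences enter the residual, 9 members passed as lower and 0 as higher. The share of all genes that passed in that model was not counted.

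**Figure D1:**
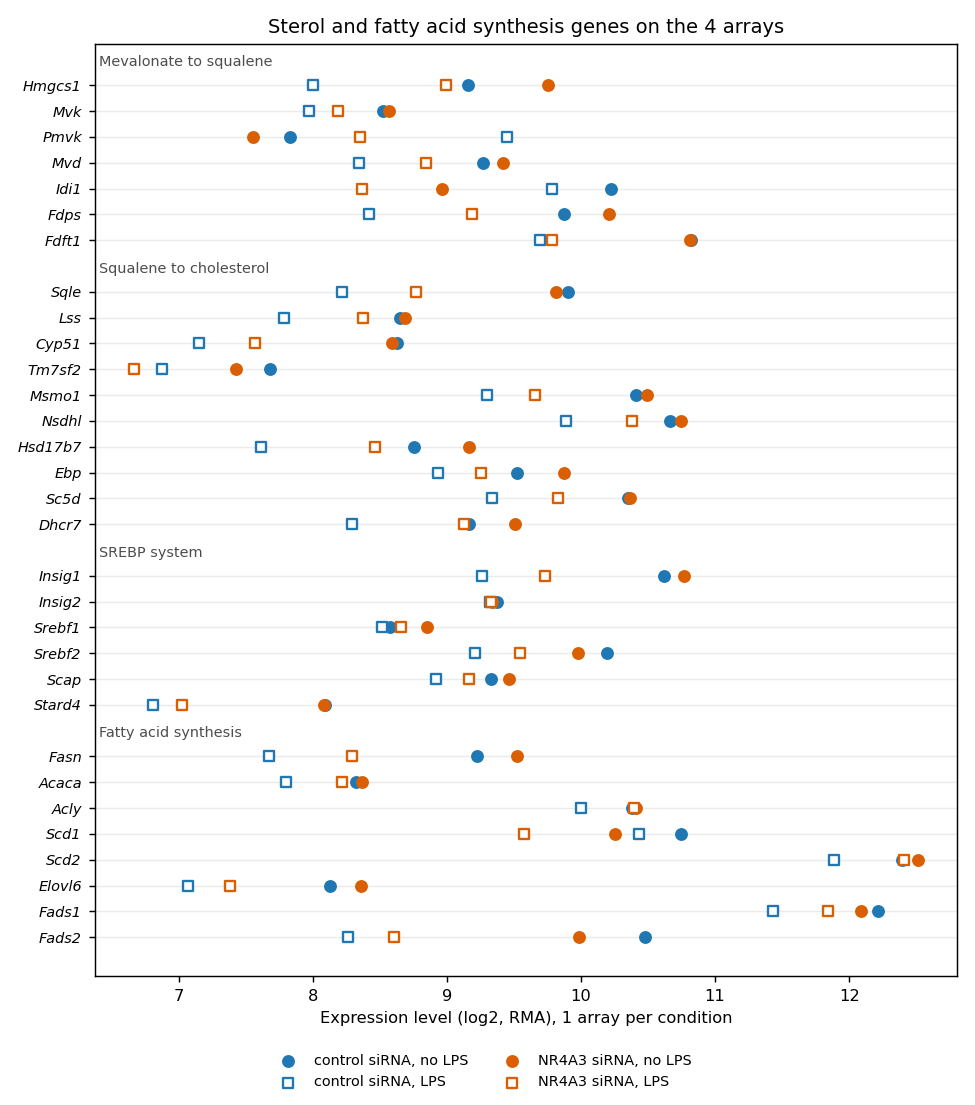
Log2 expression level (x axis) of each of the 31 measured members (rows, by step of the pathway) on the 4 arrays; circles are cells without LPS, squares cells with LPS, blue control siRNA and orange NR4A3 siRNA, with 1 array for each. For Sqle the squares lie at 8.21 and 8.77 and the circles at 9.91 and 9.81, whereas for Pmvk the squares lie to the right, and for Idi1 both orange points lie left of both blue ones.

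In the first steps of the pathway, from acetoacetyl-CoA to squalene, 6 of 7 measured members fell. Hmgcs1, which condenses acetyl units into HMG-CoA, stood at 9.16, 7.9995, 9.75 and 8.99. Under either siRNA the LPS array was the lower one, although with NR4A3 siRNA it stayed close to the unstimulated control level. Its average LPS effect was -0.96 (SE 0.13, adjusted p = 0.00357 with limma). Fdps, which builds farnesyl diphosphate, stood at 9.87, 8.42, 10.21 and 9.19, with both LPS arrays below both others. It had the lowest average of these 7, a fall of 2.35-fold on average (SE 0.13 in log2, adjusted p = 0.00174 with limma). Fdft1, the squalene synthase that commits farnesyl units to sterols, stood at 10.82, 9.69, 10.81 and 9.78, and the siRNAs gave nearly equal levels in each state. Its average effect was -1.08, and its second probe set gave LPS differences of -1.16 and -0.89, against -1.13 and -1.03 for the brighter one. Fdft1 overlaps Ctsb in the RefSeq annotation, so signal from the neighbour cannot be told apart. Mvd, the decarboxylase that makes isopentenyl diphosphate, fell by 0.75 on average and Mvk, the mevalonate kinase, by 0.47.

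Pmvk and Idi1 stood apart from the other 5 members of these steps. Pmvk, which adds the second phosphate to mevalonate, stood at 7.83, 9.45, 7.56 and 8.35. Both LPS arrays were the high ones, and the one with control siRNA the highest. LPS gave a 3.08-fold higher level with control siRNA and a 1.74-fold higher level with NR4A3 siRNA, with an average effect of 1.21 (SE 0.20, adjusted p = 0.00738 with limma). Idi1, the isomerase that turns isopentenyl into dimethylallyl diphosphate, stood at 10.22, 9.78, 8.97 and 8.36. Here the siRNA separated the arrays more than LPS did, and both arrays with NR4A3 siRNA lay below both with control siRNA. The LPS fall was 0.52 on average (SE 0.10, adjusted p = 0.0139 with limma).

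The promoters of 7 members are shown because they span the pathway and its different responses: Hmgcs1, Insig1, Cyp51, Srebf2 and Fasn fell with LPS, Idi1 also fell with NR4A3 siRNA, and Pmvk, added after its values were seen, rose with LPS. Each line holds the 250 bases before the RefSeq start, on the gene's own strand of build GRCm38.p6: chr13:119690101-119690350 (plus strand), chr5:28071162-28071411 (plus), chr5:4104698-4104947 (minus), chr15:82147019-82147268 (plus), chr11:120824548-120824797 (minus), chr13:8885356-8885605 (plus) and, for the more upstream of its RefSeq starts, chr3:89454291-89454540 (plus). Capitals mark letters that match, on either strand, a sterol response element spelled TCACNCCAC, an E-box spelled CACGTG, the CCAAT box, or a GC box spelled GGGCGG. As background, these are motifs bound by SREBP, by E-box factors, by NF-Y and by Sp1.
Hmgcs1: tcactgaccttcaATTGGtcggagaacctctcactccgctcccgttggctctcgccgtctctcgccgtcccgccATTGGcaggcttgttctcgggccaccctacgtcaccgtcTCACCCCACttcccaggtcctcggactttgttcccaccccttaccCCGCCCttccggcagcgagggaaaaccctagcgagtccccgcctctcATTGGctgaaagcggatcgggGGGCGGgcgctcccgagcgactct
Insig1: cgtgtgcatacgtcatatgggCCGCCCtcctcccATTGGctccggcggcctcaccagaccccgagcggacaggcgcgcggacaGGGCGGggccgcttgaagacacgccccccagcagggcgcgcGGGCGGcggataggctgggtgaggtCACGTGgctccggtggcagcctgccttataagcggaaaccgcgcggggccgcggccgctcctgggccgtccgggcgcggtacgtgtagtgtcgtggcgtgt
Cyp51: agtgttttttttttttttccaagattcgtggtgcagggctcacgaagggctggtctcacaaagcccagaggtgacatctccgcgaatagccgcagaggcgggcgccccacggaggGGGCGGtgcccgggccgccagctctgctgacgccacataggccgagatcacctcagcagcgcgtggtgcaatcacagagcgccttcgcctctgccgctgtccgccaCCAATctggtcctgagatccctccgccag
Srebf2: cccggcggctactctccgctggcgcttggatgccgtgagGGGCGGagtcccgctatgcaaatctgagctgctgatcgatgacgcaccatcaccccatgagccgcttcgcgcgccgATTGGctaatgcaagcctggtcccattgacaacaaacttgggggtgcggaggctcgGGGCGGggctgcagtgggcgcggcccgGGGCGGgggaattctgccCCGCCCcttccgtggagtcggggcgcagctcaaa
Fasn: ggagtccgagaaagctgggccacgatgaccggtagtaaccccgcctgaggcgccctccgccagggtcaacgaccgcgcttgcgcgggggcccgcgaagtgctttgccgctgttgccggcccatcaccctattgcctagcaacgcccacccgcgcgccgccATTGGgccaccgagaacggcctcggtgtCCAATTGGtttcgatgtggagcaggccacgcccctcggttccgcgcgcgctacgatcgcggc
Idi1: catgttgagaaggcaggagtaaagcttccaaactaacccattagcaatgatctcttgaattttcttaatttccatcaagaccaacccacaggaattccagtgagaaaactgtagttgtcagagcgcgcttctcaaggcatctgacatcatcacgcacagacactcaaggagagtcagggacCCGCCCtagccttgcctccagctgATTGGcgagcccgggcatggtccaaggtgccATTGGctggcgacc
Pmvk: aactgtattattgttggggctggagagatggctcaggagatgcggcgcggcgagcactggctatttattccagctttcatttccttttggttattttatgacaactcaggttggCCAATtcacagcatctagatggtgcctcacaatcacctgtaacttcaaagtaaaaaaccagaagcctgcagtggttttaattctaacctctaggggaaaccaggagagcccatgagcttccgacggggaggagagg

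In these letters the Hmgcs1 window holds 1 sterol response element, 3 CCAAT boxes and 2 GC boxes, and the Insig1 window 1 E-box, 1 CCAAT box and 3 GC boxes. Cyp51 has 1 CCAAT box and 1 GC box, and Srebf2 1 CCAAT box and 4 GC boxes. Fasn has 3 CCAAT boxes, of which a pair overlaps on opposite strands, while Idi1 has 2 and 1 GC box, and Pmvk 1 CCAAT box alone. Promoters were found for 25 of the 32 listed genes, with 33 windows. A CCAAT box was present in 20 of these windows, against 33.85% of 32851 windows of the same length in the table, and a GC box in 24, against 32.74%. The sterol response element was spelled out in 1 window, that of Hmgcs1, against 1.05% of all windows, and the E-box in 5, against 6.02%. Members with and without a CCAAT box overlapped in their LPS differences under control siRNA: 19 members with one ranged from -1.55 to 1.62 and 5 without from -2.22 to -0.38. Only these exact spellings were searched, so other forms of a site were not counted. A match of letters is a description, and shows no binding.

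From squalene to cholesterol, Sqle, the squalene epoxidase and a rate-controlling enzyme of the pathway, stood at 9.91, 8.21, 9.81 and 8.77. Without LPS the siRNAs gave nearly the same level, and both LPS arrays lay below. Sqle was 3.23-fold lower with LPS under control siRNA and 2.06-fold lower under NR4A3 siRNA, with an average effect of -1.37 (SE 0.17, adjusted p = 0.00265 with limma). Cyp51, the lanosterol demethylase, stood at 8.63, 7.15, 8.59 and 7.57 and repeated that order of the arrays, with an average of -1.25 (SE 0.14, adjusted p = 0.00182 with limma). Msmo1, which oxidises the methyl groups at carbon 4, stood at 10.41, 9.30, 10.49 and 9.66. The falls of the other 7 averaged 0.92 for Hsd17b7, a ketosteroid reductase, 0.78 for the sterol reductase Tm7sf2, 0.77 for the desaturase Sc5d, 0.63 for Dhcr7, which makes cholesterol from its last precursor, 0.60 for the isomerase Ebp, 0.59 for the cyclase Lss and 0.57 for the dehydrogenase Nsdhl. Tm7sf2 overlaps Vps51 in the annotation, as Srebf1 overlaps Rai1 and Acaca overlaps Tada2a, so those neighbours' signal cannot be told apart. Tm7sf2 had the lowest levels, ending at 6.66 with NR4A3 siRNA and LPS, the level of the filter.

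Among the regulators, 4 of 6 fell. Insig1, the sterol-sensitive brake on Scap and itself a target of SREBP, stood at 10.62, 9.26, 10.77 and 9.73, and fell 2.30-fold on average (SE 0.12 in log2, adjusted p = 0.00121 with limma). Insig2, its relative that depends little on SREBP, stood at 9.37, 9.32, 9.33 and 9.33, so no array stood apart. Its average effect was -0.03 (SE 0.10, adjusted p = 0.856 with limma). Of the factor genes, Srebf2 passed the test and Srebf1 did not. Srebf2 stood at 10.20, 9.21, 9.98 and 9.55, with both LPS arrays low, and fell by 0.71 (SE 0.15, adjusted p = 0.0184 with limma). Srebf1 stood at 8.57, 8.51, 8.85 and 8.65, a range within which the LPS and unstimulated arrays overlapped, and its average of -0.13 did not pass (SE 0.10, adjusted p = 0.38 with limma). Stard4, a sterol carrier that is a target of SREBP-2, fell 2.25-fold on average, from 8.09 to 6.81 and from 8.09 to 7.02. Scap fell by 0.35, close to the threshold (adjusted p = 0.0446 with limma, and 0.0552 without the level filter).

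**Figure D2:**
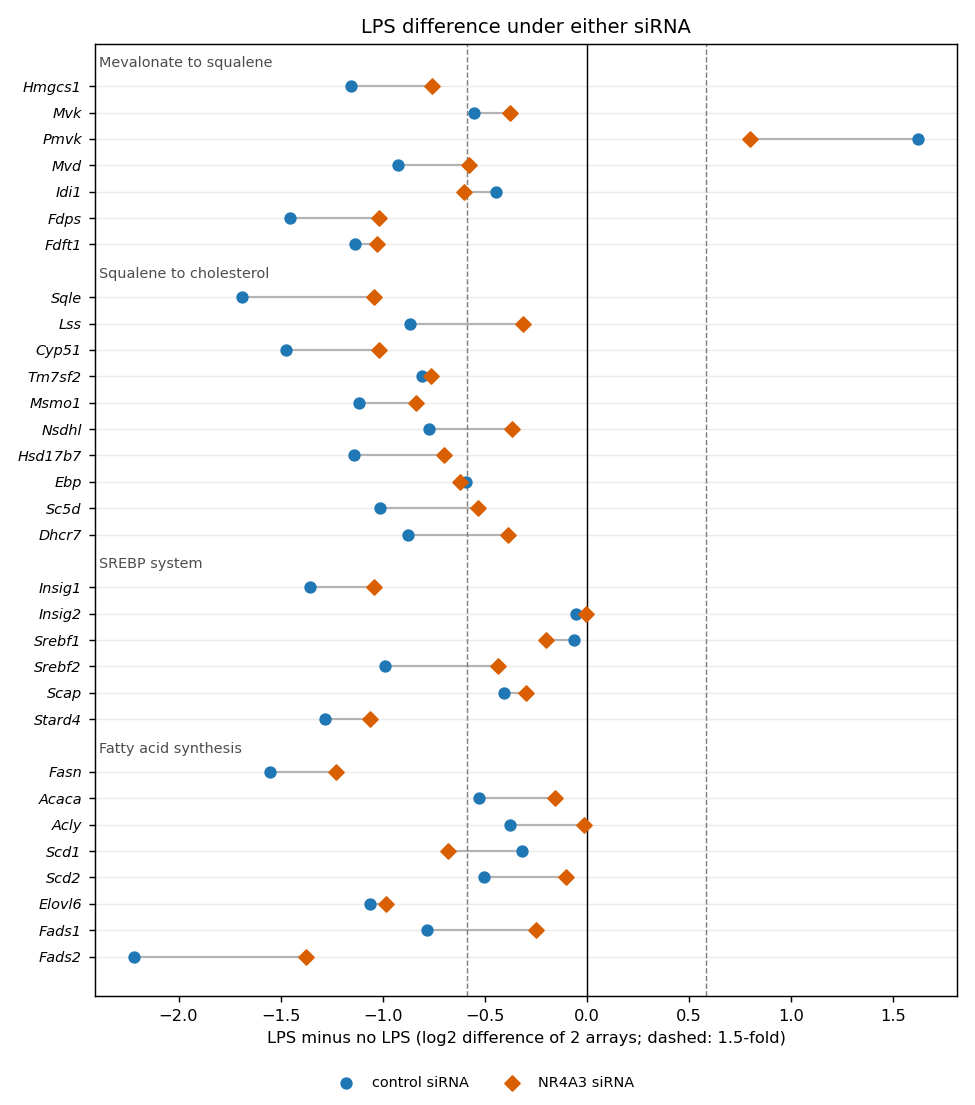
Log2 difference between LPS-treated and unstimulated cells (x axis) for each member (rows) with control siRNA (blue circles) and NR4A3 siRNA (orange diamonds), each from 1 pair of arrays and joined by a line; dashed lines mark 1.5-fold. For 26 of 31 members the orange point lies to the right of the blue one; Fads2 moves from -2.22 to -1.38 and Insig2 stays near 0 with both.

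Of 8 fatty acid genes, 5 fell. Fads2, the delta-6 desaturase that opens the path to long polyunsaturated fatty acids, stood at 10.48, 8.26, 9.98 and 8.61. It had the lowest average LPS effect of all members, -1.80 (SE 0.20, adjusted p = 0.00198 with limma), which is 3.48-fold. Fasn, the fatty acid synthase, stood at 9.22, 7.67, 9.52 and 8.29 and fell 2.62-fold (SE 0.12 in log2, adjusted p = 0.000713 with limma). Elovl6, which elongates palmitate, stood at 8.13, 7.07, 8.36 and 7.38 and fell 2.03-fold. In each of these 3 genes both LPS arrays lay well below both others. Fads1, the delta-5 desaturase beside Fads2 in the same pathway, fell by 0.52 and Scd1, a stearoyl-CoA desaturase, by 0.50, both near the threshold (adjusted p = 0.0464 and 0.0299 with limma). Without the level filter neither passed (0.0927 and 0.0557), nor did Fads1 with cyclic loess (0.0592).

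The enzymes that feed fatty acid synthase did not pass the test. Acly, which makes cytosolic acetyl-CoA from citrate, stood at 10.38, 10.00, 10.41 and 10.39, so the array with control siRNA and LPS was the low one. Acaca, which makes malonyl-CoA, stood at 8.32, 7.80, 8.37 and 8.21, with average LPS effects of -0.34 for Acaca (adjusted p = 0.0903 with limma) and -0.20 for Acly (adjusted p = 0.283 with limma). The dimmer of the 2 Acaca probe sets gave LPS differences of -0.60 and -0.20, against -0.53 and -0.15. Scd2, a close paralog of Scd1 whose probes could share signal with it, stood at 12.39, 11.89, 12.52 and 12.41 and averaged -0.30 (adjusted p = 0.13 with limma).

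Few of these genes passed the test for NR4A3 silencing. Averaged over both states, Idi1 and Scd1 fell and Hmgcs1 rose, 2 and 1 of 31 members, where 3.58% and 1.98% of genes fell and rose. The Idi1 effect was -1.34, or 2.53-fold (SE 0.10, adjusted p = 0.00792 with limma). It was 2.39-fold lower without LPS and 2.67-fold lower with LPS, and its second probe set gave -1.24 and -1.45, against -1.26 and -1.42. The 2 probe sets read almost the same levels on every array, so they are no independent check. Scd1 stood at 10.75, 10.43, 10.26 and 9.57, with the arrays of NR4A3 siRNA the lower pair, and fell by 0.67 (SE 0.12, adjusted p = 0.0413 with limma). Hmgcs1 rose by 0.80 (SE 0.13, adjusted p = 0.0307 with limma), and was 1.51-fold higher without LPS and 1.99-fold higher with it. Scd1 and Hmgcs1 lost their calls with cyclic loess scaling (adjusted p = 0.07 and 0.0585 with limma) and with no level filter (0.0857 and 0.0736), Scd1 also with quantile normalization repeated over the named genes (0.0544), and all 3 when LPS was left out of the model (0.977 to 0.979). Hsd17b7, with an average of 0.63 and an adjusted p of 0.0562 with limma, passed under 4 alternatives, at 0.0421 to 0.0494.

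Counts of silencing differences are given for each state, though the difference between states was not tested. Without LPS, 1 member was at least 1.5-fold higher with NR4A3 siRNA and 1 lower, Hmgcs1 and Idi1, where 1.62% and 4.69% of genes were, and the median member differed by 0.04. With LPS, 6 were higher and 3 lower, where 3.73% and 4.73% of genes were, and the median was 0.39, against 0.05 for all genes in the fit. The 6 were Hmgcs1, Hsd17b7 (1.80-fold), Dhcr7 (1.79-fold), Fdps (1.71-fold), Fasn (1.54-fold) and Lss (1.503-fold), which span early and late steps and fatty acid synthesis. The 3 lower ones were Idi1, Pmvk (2.14-fold) and Scd1 (1.81-fold). Of these 9, the fit over both states called Hmgcs1, Idi1 and Scd1 alone. Since Nr4a2 was lower as well in the LPS pair, its differences cannot be told apart from those of Nr4a3.

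**Figure D3:**
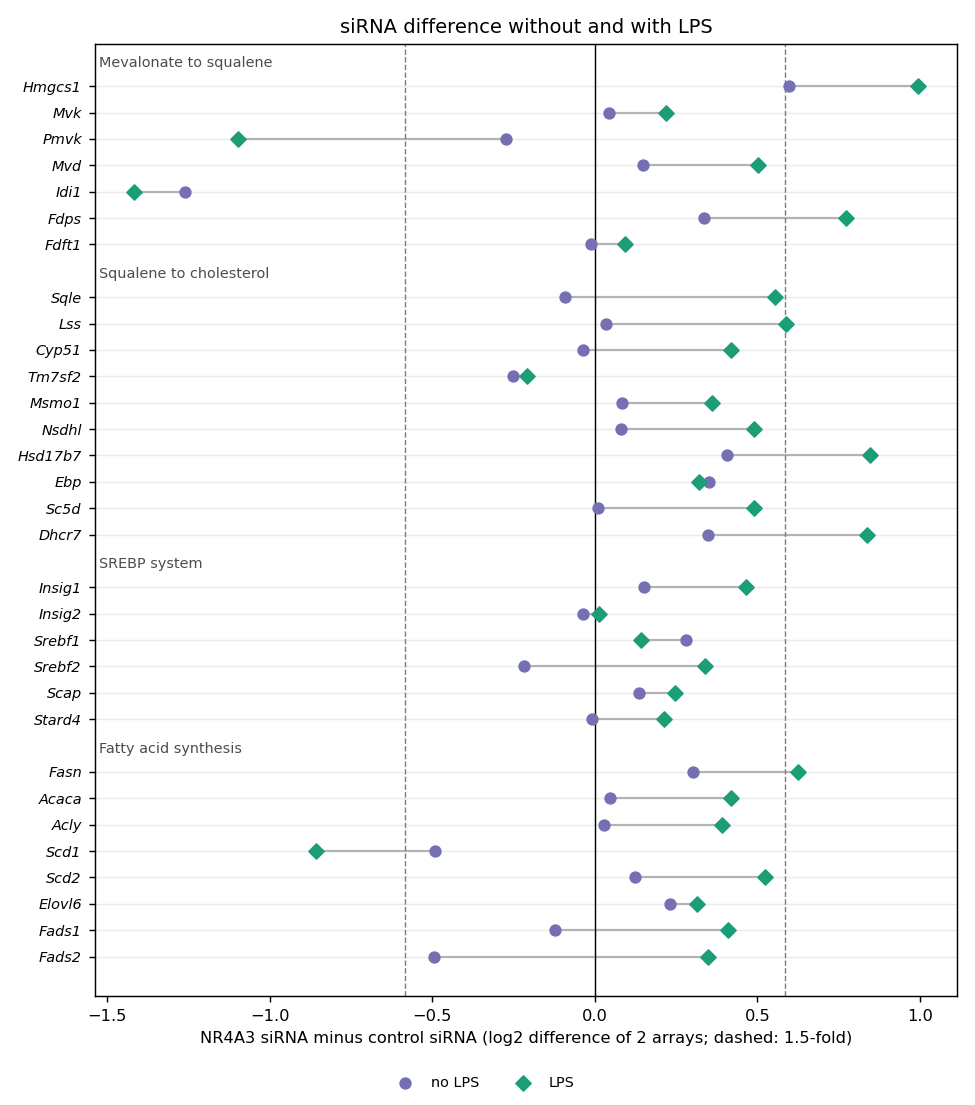
Log2 difference between NR4A3 siRNA and control siRNA (x axis) for each member (rows) without LPS (purple circles) and with LPS (green diamonds), each from 1 pair of arrays and joined by a line; dashed lines mark 1.5-fold. Most green points lie to the right of the purple ones, 27 of 31 of them above 0, as were 6130 of the 10592 genes in the fit, whereas Idi1 lies at -1.26 and -1.42 and Pmvk moves from -0.27 to -1.10.

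Put the other way, the LPS difference was less negative or more positive with NR4A3 siRNA for 26 of 31 members, as for 59.1% of all genes in the fit, with a median shift of 0.35 against 0.05. The 4 arrays leave no residual for this difference of differences, so it was not tested. It was widest for Fads2 (0.84), Sqle (0.65), Srebf2 (0.56), Lss (0.55) and Fads1 (0.53). The 5 members that went against it were Pmvk (-0.82), Scd1 (-0.37), Idi1 (-0.16), Srebf1 (-0.14) and Ebp (-0.03). Over the 31 members, Pearson's r between the LPS differences under the 2 siRNAs, which share no array, was 0.899, and over all genes in the fit 0.894; genes are no independent replicates.

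Dividing cells make membrane sterols, and most measured genes of cell division fell with LPS as well. Of 20 such genes 19 were measured, and in the fit 14 of 18 fell with LPS. Their linear signals summed to 14769, 6877, 10084 and 7359, highest on the array with control siRNA and no LPS and lower on both LPS arrays, while those of the 31 members summed to 34227, 20217, 34230 and 24757. Without LPS the median division gene differed by -0.68 between the siRNAs, where the median member differed by 0.04, and with LPS by -0.18, where the median member differed by 0.39. The LPS difference was more positive with NR4A3 siRNA for 19 of 19 division genes too. Macrophage markers, 9 of 10 measured, summed to 19244, 22552, 23080 and 28068; in the fit 5 fell and 3 rose with LPS, with median LPS differences of -0.76 and -0.48 under control and NR4A3 siRNA, and 4 rose with NR4A3 siRNA and 0 fell. The sums and the medians thus differ in direction with LPS: Mrc1 fell by 3.92 and C1qc by 2.03, while Adgre1 rose by 1.68 and Fcgr1 by 2.62. Of the dendritic cell markers 3 fell with NR4A3 siRNA (Cd83, Cd86 and Irf4) and 0 rose, and the 12 summed to 54729, 59589, 44570 and 47564. Among all genes in the fit, 14.4% fell and 15.6% rose with LPS, and 3.58% fell and 1.98% rose with NR4A3 siRNA. The part of these cell division, macrophage and dendritic cell genes in the members' differences was not tested.

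**Figure D4:**
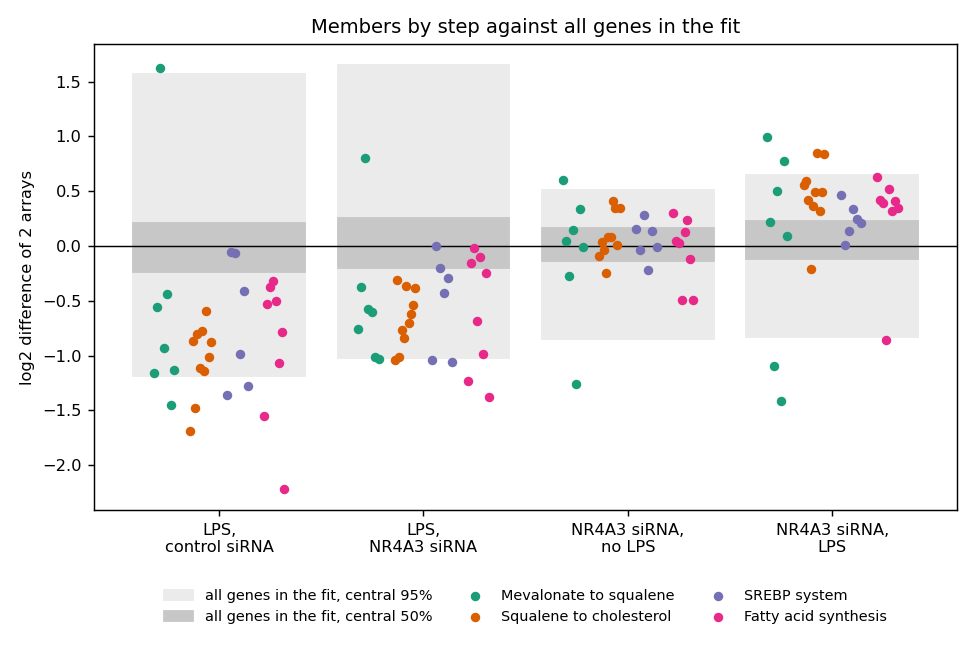
Log2 difference (y axis) of each member in the 4 pairs of arrays (x axis), coloured by step; dark and light grey bands hold the central 50% and 95% of the 10592 genes in the fit. With LPS the 10 members from squalene to cholesterol lie between -1.69 and -0.59 under control siRNA, below the central 50% of all genes, which runs from -0.24 to 0.21; with NR4A3 siRNA and LPS most members lie above 0.

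Other genes of lipid metabolism were less uniform with LPS. Of 9 further sterol synthesis genes measured, 8 entered the fit. With LPS 4 of these fell and 2 rose, where 14.4% and 15.6% of all genes did. Acat1, the mitochondrial thiolase, was lower in both pairs (-1.15 and -0.82). Ggps1, which makes geranylgeranyl diphosphate from the product of Fdps, rose by 0.57 with LPS and, like Idi1, fell with NR4A3 siRNA. It stood at 7.30, 7.96, 6.64 and 7.12 (average silencing effect -0.75, SE 0.10, adjusted p = 0.0219 with limma). Among the genes of sterol uptake, storage and export described below, 1 rose with NR4A3 siRNA and 0 fell. Among the further fatty acid and glyceride genes, 2 fell with it and 0 rose. Over all genes in the fit, 3.58% fell and 1.98% rose. With LPS, 3 of 11 genes of SREBP processing and sterol-dependent degradation rose and 1 fell, where 15.6% and 14.4% of all genes did. None of the 11 reached 1.5-fold in either LPS pair.

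Genes of sterol uptake, storage and export went both ways with LPS. Among 15 in the fit 5 rose and 5 fell, where 15.6% and 14.4% of all genes did. Ch25h, whose product 25-hydroxycholesterol is known to bind Insig proteins and hold SREBP back, stood at 6.37, 10.93, 6.21 and 9.46. Both unstimulated levels lay below 6.66, so its folds of 23.5 and 9.49 with LPS are approximate. Its average LPS effect was 3.90 (SE 0.29, adjusted p = 0.000483 with limma), and with LPS it was 2.77-fold lower under NR4A3 siRNA than under control siRNA. Its part in the members' differences was not tested. Cyp27a1, another oxysterol-making enzyme, and Scarb1, a lipoprotein receptor, fell by 1.18 and 0.80 with LPS, and Npc2, which carries cholesterol out of lysosomes, rose by 0.67.

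Of 32 further genes of fatty acid and glyceride synthesis, 24 entered the fit. With LPS 5 of these rose and 6 fell, where 15.6% and 14.4% of all genes did. Me1, the malic enzyme that supplies NADPH, rose 1.38 on the log2 scale and stood at 7.14, 8.31, 6.84 and 8.41, with both LPS arrays high. Dgat2, which makes triglyceride, rose by 1.01, while Hacd1, a dehydratase of fatty acid elongation, fell by 1.00 and the phosphatidate phosphatase Lpin1 by 1.27. Of 11 fatty acid oxidation genes in the fit, 3 fell and 1 rose with LPS, beside the same shares of all genes. Acaa2, the last enzyme of the mitochondrial cycle, differed by -0.74 and -0.66 in the LPS pairs. The median LPS differences were -0.03 and -0.07 for the first of these lists and -0.11 and -0.10 for oxidation.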

How the data were processed

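Total RNA from 4 samples, 1 for each combination of siRNA and LPS, was hybridised to Affymetrix Mouse Gene 1.0 ST arrays. The deposited log2 values were made by the authors with RMA and quantile normalization, per the labels; Expression Console 1.1 of Affymetrix appears in the submitters' processing notes, and GeneSpring in the design text. Any filter, and the genome build, is not given in the sources used here. Quantile normalization hides a shift shared by most genes.

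Of 28856 probe sets, 21789 had 1 gene symbol in the platform annotation, 1621 several and 5446 none; only the first kind was used. Genes with several probe sets (999, of which 3 are members) were taken at the brightest. All 31 measured members matched RefSeq by gene identifier and passed the level filter. Members and lists were chosen with earlier results of these data known.

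Differences between 2 arrays were counted at 1.5-fold where the brighter array reached 6.66, the median of the named genes. The additive fit of siRNA and LPS (limma 3.58.1 in R 4.3.3, lmFit and eBayes, 3 coefficients, 1 residual degree of freedom, prior of 4.76, Benjamini-Hochberg over the 10592 genes with an array at 6.66) counts as error both array noise and any unequal response to LPS under the siRNAs. The number of arrays limits precision. The code was tested on simulated data. Alternatives were median centring, repeated quantile normalization, cyclic loess, the mean of probe sets, leaving out the filter or raising it to the 75th percentile, 1.25-fold and 2-fold thresholds, a trended prior, 1 factor in the model and an adjusted p under 0.1. Named genes outside the members were at least 1.5-fold different the same way in both pairs of a factor, up to 4 a list, apart from the targeted gene, up to 4 defining markers a marker list, and Nr4a2, named after its values were seen; promoters were shown for a list of 7 members, of which Sqle has no entry in the table, and for Pmvk, added after its values were seen. RefSeq promoters, from a table whose 1671 overlapping windows on opposite strands were all reverse complements, were searched on both strands.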

Additional observations from a re-analysis of the deposited data

Results flagged for a closer look

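The siRNA difference had opposite signs without and with LPS for 8 members, each with 1 array per condition, and this was not tested. The share of all genes with opposite signs was not counted, so the 8 cannot be called particular to these members. The difference with LPS minus that without was 0.84 for Fads2, 0.65 for Sqle, 0.56 for Srebf2, 0.53 for Fads1, 0.46 for Cyp51, 0.22 for Stard4, 0.10 for Fdft1 and 0.05 for Insig2. In each of the 8 the level with NR4A3 siRNA was below that with control siRNA without LPS and above it with LPS; the unstimulated difference was -0.50 for Fads2, -0.22 for Srebf2, -0.12 for Fads1 and smaller than 0.1 in size for the other 5.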

How the results depend on the processing

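The median member difference of each pair of arrays, and the median difference of LPS effects, kept their direction and moved by less than 0.1 with median centring, repeated quantile normalization, cyclic loess and the mean of probe sets, and none of these scalings moved the median of all genes by that much. The count of members that fell with LPS went from 25 to 9 with 1 factor in the model, where those called higher with LPS went from 1 to 0, and stayed within 1.5 times otherwise. Members called higher with NR4A3 siRNA numbered 2 with median centring, the mean of probe sets, the stricter filter and the trended prior, 0 with cyclic loess, no filter or 1 factor, and 5 at an adjusted p under 0.1. Those called lower numbered 1 with repeated quantile normalization, cyclic loess or no filter, and 0 with 1 factor. At 2-fold, 13 and 8 members were lower with LPS under control and NR4A3 siRNA, and 0 were higher under NR4A3 siRNA; 0 were higher with NR4A3 siRNA in either state. At the lower alternative fold threshold, 5 were higher and 3 lower with NR4A3 siRNA without LPS, and 19 higher and 3 lower with LPS. Shares of all genes were not counted under the alternatives, so the member counts of this section stand without a baseline. The stricter filter left 0 members higher with LPS under NR4A3 siRNA and 3 higher with NR4A3 siRNA under LPS. That last count, 6 in the main setting, was 5 with median centring and 4 with repeated quantile normalization or cyclic loess. The average silencing effect of Fdft1, 0.04 in the report, was -0.001 with cyclic loess. Idi1 stayed lower with NR4A3 siRNA at adjusted p between 0.00371 and 0.0275 with limma, except with 1 factor (0.977). Why calls were lost was not tested beyond the construction of each alternative. No array could be left out of the fit, since 3 arrays leave no residual.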
